A study of Mus musculus with 6 samples.

Results

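Replication-dependent histone genes were followed as probe sets on 3 Affymetrix mouse chips. Members are the probe sets whose annotated gene symbols all belong to the H1, H2A, H2B, H3 or H4 cluster genes. This held for 26 of 36701 probe sets. There were 23 on the chip U74Av2, which holds 12422, then 1 among the 12411 of U74Bv2 and 2 among the 11868 of U74Cv2. Total RNA labelled as coming from spermatogonia, germ cells of the testis that still divide by mitosis, was taken from mice 1 week old on a mixed 129sv and C57Bl6 background. Each chip was hybridised with 1 array of Zfp145 knockout mice, called Null here, and 1 array of wild-type mice, called WT. Zfp145, now named Zbtb16 and known as PLZF, is a transcriptional repressor needed to keep spermatogonial stem cells. The labels leave unsaid what the knockout allele removes, how the cells were isolated, how many animals were used or whether the 3 chips of a genotype received 1 RNA extract. With 1 array per genotype and chip, no difference has a replicate check and none was tested, and the number of arrays limits the precision. The members were selected by symbol alone, but the family was chosen from these arrays with the low H3c14 ratio of Null over WT on U74Av2 already known, so that ratio is given as a description.

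Replication-dependent histones package newly made DNA. The core histones H2A, H2B, H3 and H4 form the nucleosome and the linker histone H1 binds where DNA enters and leaves it, and most of their genes lie side by side in clusters and are transcribed in S phase. Their mRNAs as a rule end in a stem-loop that the stem-loop binding protein recognises, and not in a poly(A) tail. The labels do not say how the RNA was primed before labelling, and the part of priming in any value below was not tested. Male germ cells also use testis-specific members, such as the H2B gene H2bc1 (TH2B) and the linker gene H1f6 (H1t).

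The chips covered the family unevenly. RefSeq lists 65 gene symbols of these clusters, pseudogenes included, 55 on chromosome 13 and 10 on chromosome 3, and 39 of them appear in the annotation of a member. Only 14 are the sole symbol of a member probe set. All 6 H1 genes and all 12 H3 genes are annotated, against 13 of 19 H2A and 8 of 16 H2B symbols. None of the 12 H4 genes has a member probe set. Of the 26 members 7 carry several symbols, as the coding sequences of a class are nearly alike, and 10 carry a suffix in their name that marks probes shared within a sequence family or picked under relaxed rules. On U74Av2 such suffixes mark 10 of 23 members (43.5%) and 22.6% of all probe sets.

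Signal was judged against a floor at the 40th percentile of both arrays of a chip, which was an intensity of 98.3 for U74Av2, 165 for U74Bv2 and 124 for U74Cv2. Intensities are given as deposited. Log2 ratios are Null over WT after the Null array was scaled to the WT array, a shift of 0.01 on U74Av2, and with values under the floor raised to it. Where 1 of the pair lay at the floor the ratio is a bound, and where both did there is none. On U74Av2 7 of 23 members (30.4%) passed the floor in Null, WT or both, against 63.0% of all probe sets on that chip. Those 7 were all that could be measured, 5 on both arrays, 1 in Null alone and 1 in WT alone. The members on U74Bv2 and U74Cv2 stayed under the floor. A member that enters only through its brighter array had to differ, so no share over the 7 describes the family.

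**Figure D1:**
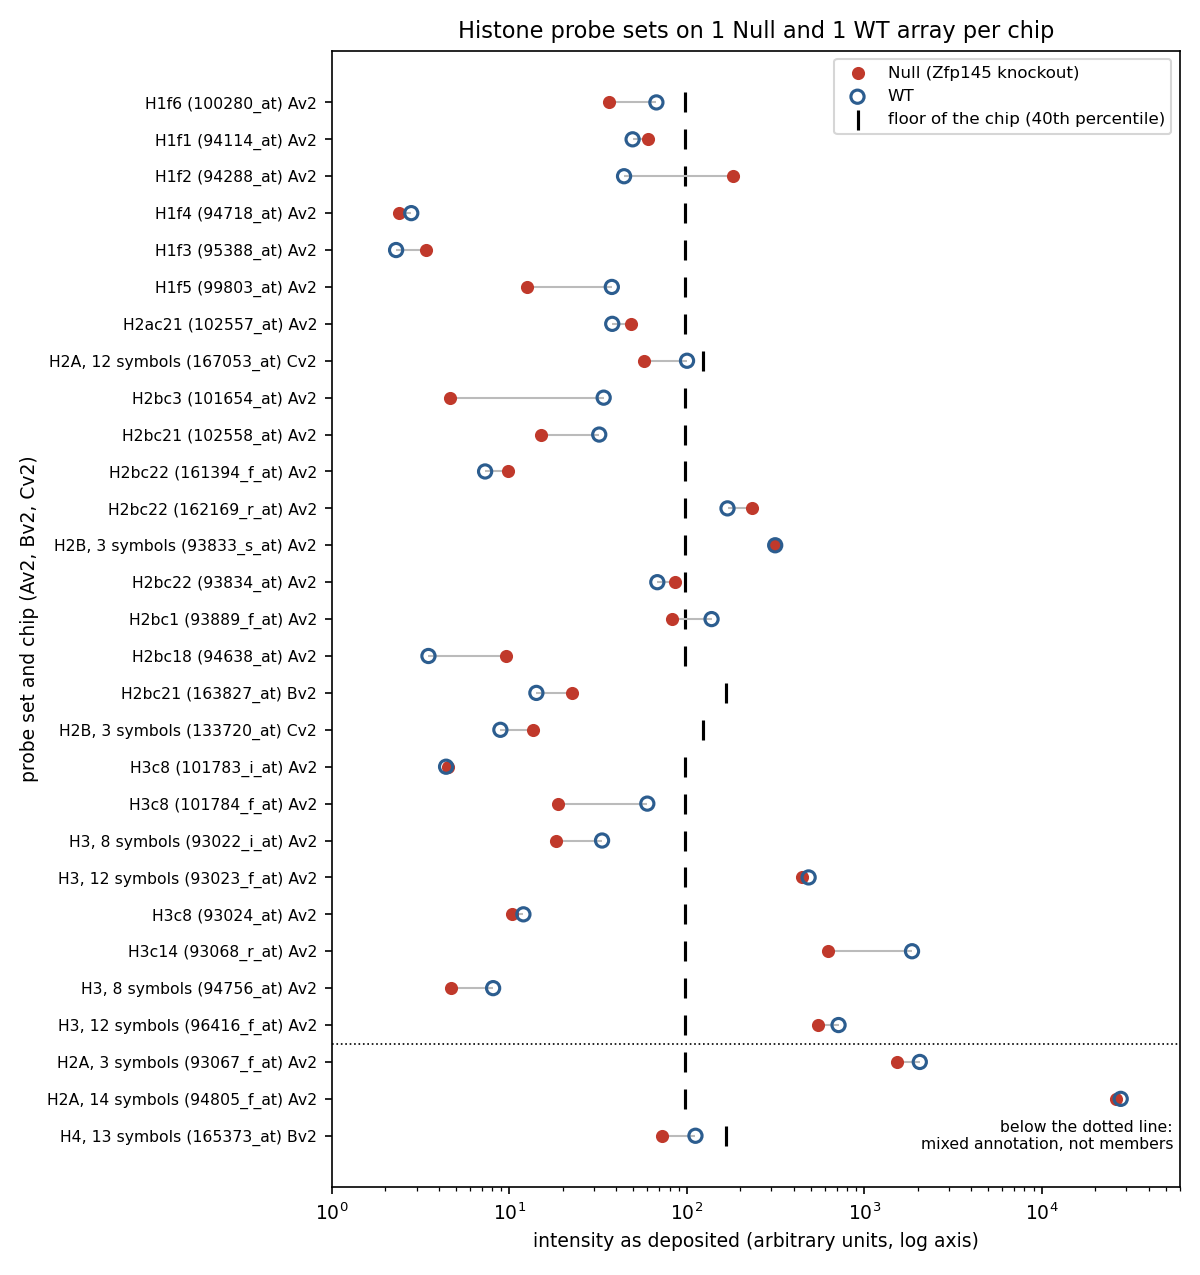
Deposited intensity (log axis) of each histone probe set on the Null array (filled) and the WT array (open), with the floor of its chip as a tick. Most members lie left of their tick on both arrays; H3c14 reads 621.8 in Null and 1859 in WT, and the 3 rows under the dotted line are probe sets of mixed annotation that are not members.

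The ratio farthest from 0 among the measured members was that of an H3 probe set. The set annotated to H3c14 alone, a gene for the replication-dependent histone H3 in the cluster on chromosome 3, read 621.8 in the Null array and 1859 in the WT array. Its signal was lower in Null by 3.01-fold, a log2 ratio of -1.59. The name of this set carries the suffix r, which marks relaxed probe selection. Above the floor on both arrays, such sets were 28.1% of those at least 2-fold lower and 4.0% of all. The log2 ratios of probe sets of the same gene on this chip had a spread of 0.19 per set at this level. This spread is on the scale of an SD, was pooled over sets of every suffix and comes from the same pair of arrays. It covers disagreement between probe sets, differences between transcripts included, but not the spread between hybridisations or between animals. Of 7082 probe sets above the floor on both U74Av2 arrays, 3 had a ratio as low as that of the H3c14 set or lower, itself included. On that chip 0.575% of the 7822 probe sets above the floor on at least 1 array were at least 2-fold lower in Null and 0.332% at least 2-fold higher. Among the 7 measured histone members 1 was at least 2-fold lower and 0 at least 2-fold higher; since H3c14 drew attention to the family, nothing is read from that count.

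The other measured probe sets annotated to H3 genes differed far less. Both remaining H3 members above the floor are family sets annotated to all 12 H3 cluster genes, H3c14 among them. One read 550.9 in Null and 716.6 in WT, a log2 ratio of -0.39. The other read 448.1 in Null and 486 in WT, a log2 ratio of -0.13, against a spread of 0.27 at their level. The first of these family sets lay past this spread, which comes from sets with 1 symbol, and the second did not. Of the 7082 probe sets above the floor on both arrays, 656 had a ratio as low as the first or lower. For the second that number was 2315.

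The H3 members under the floor add no ratio. Of 5 such probe sets, 3 are annotated to H3c8, which encodes a replication-dependent H3 in the cluster on chromosome 13, and read 4.5, 18.9 and 10.3 in Null and 4.4, 59.9 and 12 in WT. The 2 annotated to 8 H3 genes, H3c14 included, read 18.3 and 4.7 in Null and 33.3 and 8.1 in WT. So of 5 members whose annotation includes H3c14, 3 were measured, and the -1.59 belongs to the one that names it alone.

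The probe set numbered just before the H3c14 set on the chip is annotated to neighbouring genes. It was designed from the same GenBank entry as the H3c14 set and is annotated to the H2A genes H2ac18 and H2ac19 and to the pseudogene H2af-ps2, which places it just outside the rule. RefSeq places H2ac18 directly beside H3c14, and H2ac19 beside H3c15, the other H3 gene of this repeated stretch. This H2A set read 1525.7 in Null and 2056.4 in WT, a log2 ratio of -0.44 where the spread was 0.19. Both probe sets of that entry were therefore lower in Null, the H3 one by the larger ratio. Because one entry holds both genes, which transcripts the H3c14 set detected cannot be settled from the annotation.

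The upstream sequences of H3c14 and H2ac18 are shown because they are the neighbouring genes to which these 2 sets are annotated. They are the 250 bases before the annotated start, from RefSeq on GRCm38.p6, both on the plus strand, with H3c14 at chr3:96246435-96246684 and H2ac18 at chr3:96245247-96245496. Capitals mark motif matches on either strand. The CCAAT box, bound by the factor NF-Y, was searched as CCAAT. The element found before start sites, the TATA box, was searched as TATAAA. The H1 box of linker histone promoters was searched as AAACACA. The octamer of H2B promoters, bound by OCT1, was searched as ATTTGCAT. In the windows printed here no match overlapped another.
H3c14: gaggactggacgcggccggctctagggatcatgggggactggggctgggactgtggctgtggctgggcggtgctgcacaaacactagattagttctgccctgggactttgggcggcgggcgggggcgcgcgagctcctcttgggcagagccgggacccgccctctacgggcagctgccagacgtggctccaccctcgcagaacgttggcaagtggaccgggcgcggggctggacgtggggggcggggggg
H2ac18: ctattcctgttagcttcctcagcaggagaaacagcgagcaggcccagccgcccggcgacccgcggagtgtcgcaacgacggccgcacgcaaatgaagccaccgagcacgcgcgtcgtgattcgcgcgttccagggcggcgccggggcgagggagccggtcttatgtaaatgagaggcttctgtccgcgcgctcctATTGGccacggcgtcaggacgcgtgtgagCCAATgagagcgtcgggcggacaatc
The H2ac18 window holds 2 CCAAT matches, beginning 55 and 26 bases before the start. The H3c14 window holds no exact match to the 4 searched strings and has 71.2% G and C, against 65.6% in H2ac18. Variant forms of these elements and other start sites were not searched. The windows of H3c14 and H3c15 were identical at 234 of 235 aligned bases (99.6%), and those of H2ac18 and H2ac19 at 199 of 210 (94.8%), so the pairs are close copies of each other upstream as well.

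**Figure D2:**
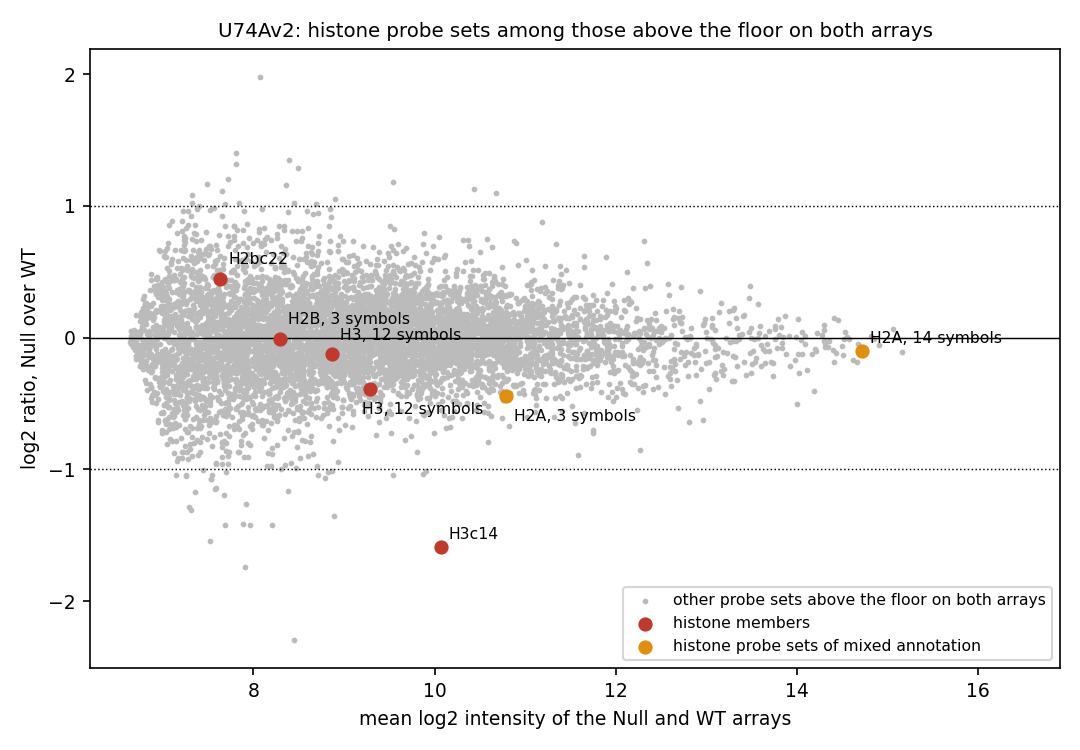
Log2 ratio of Null over WT against mean log2 intensity for the 7082 U74Av2 probe sets above the floor on both arrays, with the 5 histone members (red) and 2 histone sets of mixed annotation (orange). H3c14 stands at -1.59, below the dotted line at a 2-fold difference, while the other histone sets lie between -0.44 and 0.45.

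H2A could hardly be judged from members. H2ac21, an H2A gene of the chromosome 3 cluster, read 48.4 in Null and 38 in WT on U74Av2, both under the floor. The probe set on U74Cv2 annotated to 12 H2A genes read 57.7 in Null and 100.3 in WT, also under the floor. A U74Av2 family set that lists those genes together with H2aw and the non-histone gene Trim17, and so lies outside the rule, read 26111.8 in Null and 27885.4 in WT. Its log2 ratio of -0.10 lay within the spread of 0.19. That set lists all 12 symbols of the U74Cv2 set, and as 1 pooled reading it gives no ratio for any single gene.

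H2B had 3 measured members, 2 on both arrays and 1 with a bound. A set annotated to H2bc8, H2bc6 and H2bc4, core H2B genes of the chromosome 13 cluster, read 314.9 in both the Null and the WT array, a log2 ratio of -0.01 after scaling. H2bc22, another H2B gene of that cluster, had 1 measured probe set, at 233 in Null and 169.6 in WT. Its log2 ratio of 0.45 compares with a spread of 0.33 at this level. The 2 other H2bc22 sets were under the floor, at 9.8 and 85.5 in Null and 7.3 and 68.2 in WT, so the gene has no second measured value.

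H2bc1, the testis-specific H2B known as TH2B, was above the floor in WT alone. Its family set read 82.9 in Null and 137.9 in WT, at least 1.40-fold lower in Null, a bound of -0.49. In male germ cells TH2B replaces much of the somatic H2B as spermatogonia enter meiosis. The linker gene H1f6, which is known for its expression in spermatocytes, read 36.4 in Null and 67.4 in WT, both under the floor. H2bc1 shares its upstream region with H2ac1, the testis-specific H2A gene, which lies next to it on the other strand, and 220 bases of their windows overlap. The window of H2bc1 at chr13:23934157-23934406, minus strand, is printed because this shared promoter held all 4 motifs.
H2bc1: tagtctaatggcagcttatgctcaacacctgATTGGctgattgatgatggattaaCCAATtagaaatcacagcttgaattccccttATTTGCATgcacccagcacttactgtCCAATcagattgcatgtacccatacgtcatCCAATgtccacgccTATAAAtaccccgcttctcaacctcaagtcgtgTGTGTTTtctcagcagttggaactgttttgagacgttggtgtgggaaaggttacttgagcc
It holds 4 CCAAT matches, 1 TATA box 94 bases before the start, 1 octamer at 164 bases and 1 H1 box match at 61 bases.

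The remaining H2B members gave no ratio. H2bc21, an H2B gene of the chromosome 3 cluster, read 15.1 in Null and 32.1 in WT on U74Av2 and 22.4 in Null and 14.2 in WT on U74Bv2. These 2 readings under the floor point opposite ways. H2bc3 read 4.6 in Null and 34 in WT, H2bc18 read 9.6 in Null and 3.5 in WT, and the U74Cv2 set for H2bc8, H2bc6 and H2bc4 read 13.6 in Null and 8.9 in WT.

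Linker histones were dim, and 1 of 6 could be measured. H1f2, the gene of the somatic linker histone H1.2, read 181.2 in the Null array and 44.3 in the WT array. With WT at the floor it was at least 1.83-fold higher in Null, a bound of 0.87 on the log2 scale. The spread of 0.33 at low level comes from sets above the floor on both arrays, so it does not cover this one. It is the only measured member without a suffix in its name, and H1f2 is its only symbol. The other linker genes were under the floor on both arrays, with H1f1 at 60.6 in Null and 49.5 in WT and H1f5 at 12.6 in Null and 37.8 in WT. H1f3 read 3.4 in Null and 2.3 in WT and H1f4 read 2.4 in Null and 2.8 in WT, so H1f2 has no measured relative in its class. Its window at chr13:23738557-23738806, plus strand, is given as that of the 1 measured H1 member.
H1f2: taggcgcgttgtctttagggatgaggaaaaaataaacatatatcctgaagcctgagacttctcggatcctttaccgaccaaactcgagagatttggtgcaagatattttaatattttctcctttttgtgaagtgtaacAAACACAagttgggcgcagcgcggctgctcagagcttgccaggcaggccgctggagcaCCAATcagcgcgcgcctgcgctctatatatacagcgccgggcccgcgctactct
An H1 box match begins 112 bases and a CCAAT match 54 bases before the start.

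H4 had no member. The U74Bv2 set for H4 genes also lists the symbol H4f16, which the rule does not take, and read 72.8 in Null and 111.9 in WT, under the floor of 165. No statement on H4 mRNA can be made from these arrays.

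**Figure D3:**
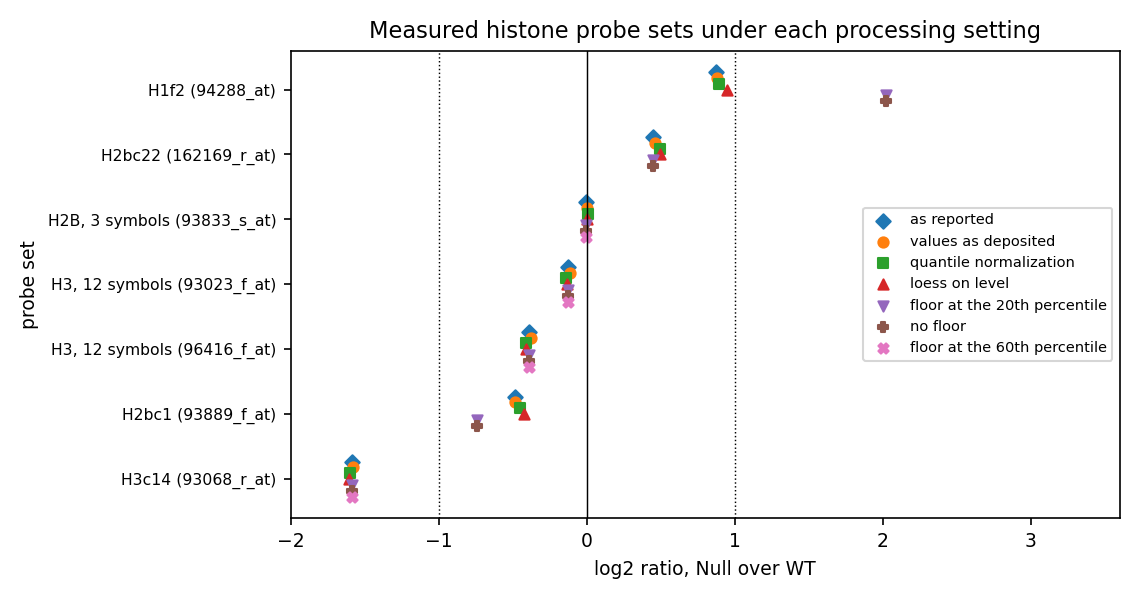
Log2 ratio of the 7 measured histone probe sets as reported and under 6 other processing settings, with dotted lines at a 2-fold difference. H3c14 stays between -1.61 and -1.58, whereas H1f2 is a bound of 0.87 as reported and 2.02 where the floor is lowered to the 20th percentile or left out.

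As deposited, 14 members were lower in Null, 11 higher and 1 equal. Among the 19 under the floor on both arrays, 9 read higher in Null and 10 lower. Readings under the floor have no order, and the 7 measured members include H3c14 and 2 bounds, so neither set of values gives the family a direction.

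The share of promoters with a CCAAT match differed by class. Of 59 windows for 58 cluster genes 49 held CCAAT (83.1%), against 33.8% of all 32851 windows. It stood in all 6 H1, 17 H2A and 15 H2B windows and in 8 of 10 H3 windows, but in 3 of 11 H4 windows (27.3%). TATAAA stood in 47.5% of the cluster windows and in 12.4% of all. The H1 box stood in 5 of 6 H1 windows and the octamer in 7 of 15 H2B and 6 of 17 H2A windows, against 6.25% and 1.60% of all windows. Neither occurred in the 10 H3 or 11 H4 windows. A match is a string of letters and no evidence of binding.

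Genes of histone mRNA processing, transcription, chaperoning and S phase had medians near 0. Over 12447 genes on the 3 chips, each by 1 probe set, 1.85% were at least 2-fold lower in Null and 1.59% at least 2-fold higher, and the median log2 ratio was -0.01. The lists were chosen with earlier results of these data known. Among genes for histone mRNA 3′ processing and decay, 31 of 32 listed were measured, 15 below 0 and 16 above, with a median of 0.03 and 0 at least 2-fold different by the set read for each gene, where Lsm11 counted at its bound of -0.998. Of 20 further sets 1 was at least 2-fold higher, for Cpsf3 on U74Cv2, where 5.68% of measured probe sets were. Cpsf1, a subunit of the cleavage factor, read 6657.2 in Null and 7319.3 in WT (-0.14), and its other set gave 0.13. Snrpf, an Sm protein, stood at 0.08. Slbp, the stem-loop binding protein itself, read 1308.5 in Null and 1401.1 in WT, a log2 ratio of -0.11, and is named because the whole family depends on it.

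Factors of histone gene transcription had 25 of 29 measured, 9 below 0 and 16 above, with a median of 0.06. None was 2-fold different, and the general factor Sp1 stood at 0.09, with 0.39 and 0.21 from its other measured sets, and Yeats2 at 0.08. Histone chaperones, which carry histones to DNA, had 32 of 38 measured, 15 below 0 and 17 above, with a median of 0.02. Npm1 stood at 0.16 on U74Av2 and at a bound of -0.35 on U74Cv2, and Anp32b, a chaperone of the acidic nuclear family, at 0.35. Supt16, a subunit of the FACT chaperone, read 300.3 in Null and 30.3 in WT on U74Cv2, a bound of 1.25 with WT at the floor, and no other set of it was measured. A further set of Mms22l, a factor of replication fork repair, was at a bound of -1.44 on U74Cv2, where its brighter set stood at -0.33. On U74Cv2 5.46% of measured probe sets were at least 2-fold lower in Null and 5.68% higher, and the spread was 0.58 at low level.

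Replication-independent histone variants, which as a rule are not tied to S phase and come from polyadenylated mRNAs, had 10 of 20 measured. Of these 3 lay below 0 and 7 above, with a median of 0.10. H2az1 read 3754.3 in Null and 3516.5 in WT (0.09), and H2az2 read 6953.3 in Null and 5508.3 in WT (0.33). H2ap stood at -1.29, from 145.5 in Null and 350 in WT, and the testis variant gene H2bl1 at a bound of 1.18, from 285 in Null and 64.6 in WT. Both of these came from U74Cv2 sets with relaxed probe selection.

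DNA replication genes had 55 of 59 measured, 24 below 0 and 31 above, with a median of 0.03 and 0 at least 2-fold different by the set read for each gene. Of 34 further sets of these genes 2 were at least 2-fold lower. Their chips were U74Bv2, where the share over all probe sets was not counted, and U74Cv2, where it was 5.46%. Nothing is read from this count. Gins1, a subunit of the replicative helicase complex, read 211.8 in Null and 490.3 in WT in a U74Bv2 set with relaxed probe selection (-1.22). Its other 2 sets stood at -0.44 and 0.00. Rrm1, a subunit of ribonucleotide reductase, read 132 in Null and 280.3 in WT on U74Cv2 (-1.11) and 1612.9 in Null and 1613.6 in WT on U74Av2 (-0.01). Mcm5, another helicase subunit, stood at -0.33 on U74Cv2 and at -0.09 on U74Av2, and Pole, the catalytic subunit of DNA polymerase epsilon, at 0.07. Genes of G2 and mitosis had 29 of 30 measured and a median of 0.06. The mitotic kinesin gene Kif11 was at a bound of -1.88 on U74Cv2 and at 0.08 on U74Av2, Cenpf stood at 0.03 and Cdc20 at 0.09.

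**Figure D4:**
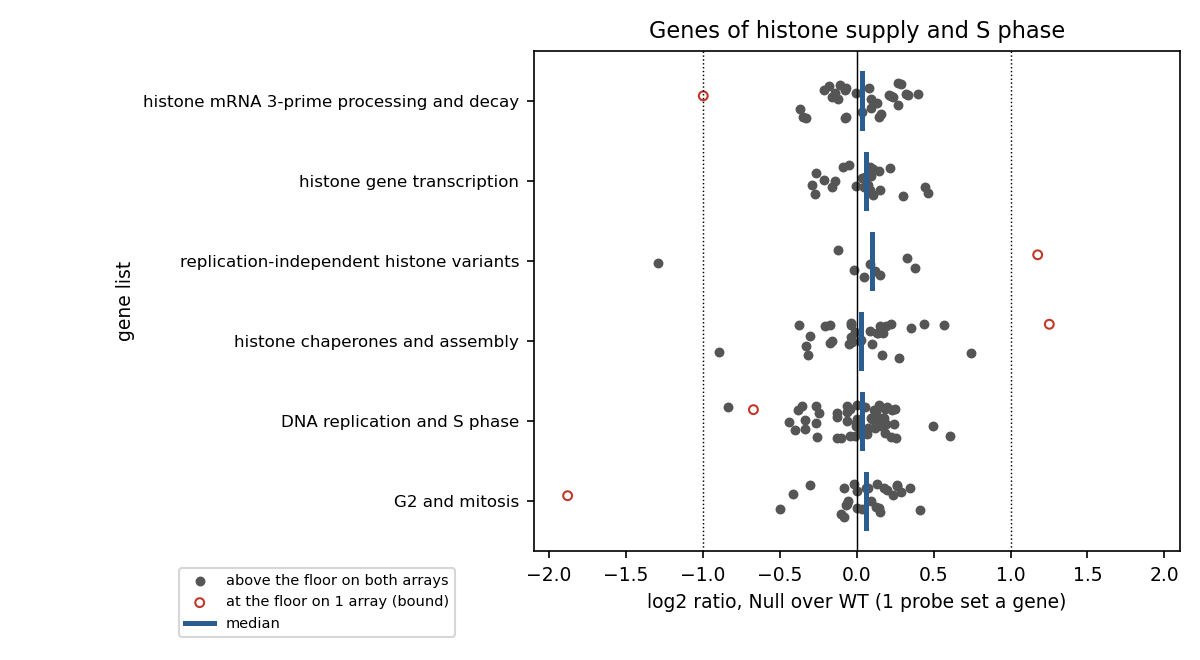
Log2 ratio of Null over WT for each measured gene of 6 lists, 1 probe set a gene, with open circles for genes at the floor on 1 array and bars for medians. The 6 medians lie between 0.02 and 0.10, and 4 genes pass a dotted line at a 2-fold difference.

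The arrays as a whole bore on these values as follows. Zbtb16 read 158.1 in Null and 770.2 in WT on U74Av2 (-2.29) and 510.8 in Null and 1156.8 in WT on U74Cv2 (-1.20). Of 11 spermatogonial markers on U74Av2 9 were above the floor on both arrays, with Gfra1 and Ret below it. The summed intensity of the 11 was 16985 in Null and 14578 in WT. This list includes Zbtb16, the targeted gene. Dazl read 6372.8 in Null and 4287.3 in WT and made up most of the difference in the sum. Besides Zbtb16, Stra8 (-0.18) and Id4 (-0.20) were lower in Null, and the other measured markers were higher. Of 13 Sertoli markers 13 were above the floor on both arrays, with sums of 40936 in Null and 47178 in WT. Clu and Aard were the brightest and weighed most in these sums. Gata4 was higher in Null (0.14) and the other Sertoli markers were lower, Rhox5 (-1.04), Tsx (-1.02) and Gata1 (-0.70) the most. Leydig markers summed to 1752 in Null and 2456 in WT, with 6 of 7 above the floor on both arrays and a median log2 ratio of -0.40. Among them Hsd17b3 was higher in Null (1.20) and the other measured ones were lower, Nr2f2 the most (-1.35). The 3 erythroid markers summed to 3409 in Null and 5215 in WT, with 2 above the floor on both arrays, Hba-a1 (-0.72) and Hbb-b2 (-0.09). Their median of -0.46 is the value of Alas2, a bound with Null at the floor. The medians were -0.20 for Sertoli and 0.17 for spermatogonial markers. Myoid markers (4 of 6), endothelial markers (5 of 6) and macrophage markers (5 of 6) were also above the floor on both arrays, with medians of -0.05, 0.12 and -0.09. Genes of somatic cells were thus measured in RNA labelled as from spermatogonia. Of 4 spermatocyte markers 3 were above the floor on both arrays (0.11), and of 7 spermatid markers 5 were below it on both. The 2 other spermatid markers, Tnp1 (-0.41) and Odf1 (-0.87), were above it on both arrays, with a median of -0.64. In such bulk RNA fewer cells of a type and less RNA per cell cannot be told apart, and the part of cell makeup in the H3c14, H2bc1 and H1f2 readings was not tested. Actb probes gave 3′ to 5′ ratios of 2.72 to 3.15, and Gapdh probes gave 1.14 to 1.28.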

How the data were processed

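RNA labelled as from spermatogonia was measured on 6 single-colour arrays, 1 Null and 1 WT array on each of 3 chips, grouped by the sample titles. The authors deposited linear intensities per probe set, and the software behind them is not given in the sources used here. With the lowest and highest 2% of values removed, the 6 arrays had means between 500.1 and 500.3, so scaling per array preceded deposit.

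Symbols came from GEO's platform annotation, and all 39 Entrez identifiers of members matched RefSeq (GRCm38.p6) with the same symbol. Without the 66 controls of a chip, Null values were scaled by the median Null over WT ratio among the upper 50% of mean rank, a log2 shift of 0.01, 0.00 and 0.02. The spread is the median absolute difference in log2 ratio between sets of 1 gene on 1 chip, at low, middle and high level. It was made comparable with an SD and divided by the square root of 2, so that it refers to 1 set. Only sets with 1 symbol and above the floor on both arrays entered it. In lists a gene is read by its set of the highest level percentile. Named were members at least 2-fold different and the 2 brightest of each class, and for lists up to 4 genes at least 2-fold different and the 2 brightest. Slbp and the members under the floor were named after their values were seen. Members, lists and rules were chosen with earlier results of these data known.

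Alternatives were no scaling, quantile normalization, loess on level, floors at the 20th or 60th percentile or none, thresholds of 3-fold and 1.5-fold, sets without a suffix, sets with 1 symbol, and no U74Cv2. The work ran in Python 3.11.15 with numpy 2.4.6, pandas 2.3.3 and statsmodels 0.14.6, and was tested on simulated data.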

Additional observations from a re-analysis of the deposited data

How the results depend on the processing

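Over 154 alternative values, 141 stayed within the spread between probe sets (for counts, within 1.5 times) and 13 moved past it. Only the H3c14 ratio was large enough to count as reversed, and it kept its sign. The medians of H1 (0.87 as reported), of H2B (-0.01) and of all measured members (-0.13) each changed sign under at least 1 setting. List medians near 0 were judged against a spread of 0.33 of single sets, which left them little room to move past it. H3c14 remained at least 2-fold lower wherever its probe set was kept. Keeping sets without a suffix left 1 measured member, H1f2, so that 0 were lower and the median was 0.87, its bound. Lowering the floor to the 20th percentile, 2 members were at least 2-fold lower, H3c14 and H3c8 at a bound of -1.19, and 1 higher, H1f2 at 2.02, and the H1 median was -0.12 over 4. With no floor 5 were lower and 2 higher, the H1 median was 0.026 over 6 and the H2B median 0.37 over 10. These counts add H2bc3, H3c8, H2bc21, H1f5 and H2bc18, all under the floor on both arrays. At 1.5-fold 1 was higher, H1f2. With 1 histone symbol only, the H3 median was -1.59, from H3c14 alone. The ratio of the H2bc8, H2bc6 and H2bc4 set lay between -0.01 and 0.01 over the settings. List medians lay between 0.01 and 0.11 under the settings run. No paired analysis was possible because each genotype has 1 array per chip, and leaving out an array leaves no ratio. The signal over background limits the family: 19 of 26 members lie under the floor.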

Other observations

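Among the factors that cut histone pre-mRNA at the stem-loop, Lsm11, a subunit found in the U7 particle, had probe sets that went in different directions. It was singled out, with the factors beside it here, after the values were seen. On U74Bv2 1 set read 90.8 in Null and 330 in WT, so that -0.998 is a bound with Null at the floor, while the other read 297.2 in Null and 219.3 in WT (0.43). A set on U74Cv2 read 159.4 in Null and 231 in WT (-0.56), so the 3 sets of the gene did not go one way. Its partner Lsm10 read 1927.4 in Null and 2143.8 in WT (-0.16). Cpsf3, the endonuclease, read 1300.1 in Null and 1027.3 in WT on U74Av2 (0.33) and 440.5 in Null and 66.1 in WT on U74Cv2, a bound of 1.80. The scaffold gene Sympk stood at 0.22 and 0.40, Casp8ap2 (FLASH) at 0.16, and Npat, the coactivator of histone genes, at 0.31 and -0.09 from its 2 sets.

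Suffixed sets were frequent among the lowest ratios on U74Av2. Of the 5 lowest among those above the floor on both arrays, 5 carried a suffix, namely those for Zbtb16, for Rpl29 and similar predicted genes, for H3c14, for Gstm2 at -1.54 and for Slc25a5 at -1.42. The suffixes were of 3 kinds, and the r that marks relaxed probe selection was on the H3c14, Gstm2 and Slc25a5 sets. Of the 32 at least 2-fold lower, H3c14 included, 14 carried a suffix of any kind (43.8%) and 9 an r (28.1%), against 18.2% with any suffix and 283 sets with an r among the 7082 above the floor on both arrays. This was seen first and counted afterwards, and what it means for H3c14 was not tested.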
